A study of Caenorhabditis elegans with 21 samples.

Results

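The gene egl-9 of Caenorhabditis elegans was examined transcript by transcript. All rows whose name begins with the sequence name of egl-9, F22E12.4, followed by an isoform letter were taken, which gave 9 of the 32905 transcripts in each table. Their estimated counts and TPM, a level corrected for library size and transcript length, were followed singly and summed over the gene in all 21 libraries. The RNA came from whole worms of 7 genotypes, with 3 libraries each. The genotypes were the double mutant egl-9(sa307);vhl-1(ok161), the single mutants egl-9(sa307) and rhy-1(ok1402), worms with vhl-1(ok161) alone, the double mutant egl-9(sa307) hif-1(ia4) and worms with hif-1(ia4) alone, set against N2, the wild-type laboratory strain that carries none of these alleles. They are written here as egl-9;vhl-1, egl-9, rhy-1, vhl-1, egl-9 hif-1, hif-1 and N2. All worms were grown as synchronized populations on NGM plates with OP50 bacteria and were picked as young adults before eggs could be seen, 30 to 50 to a sample. No group was given low oxygen, according to the labels. The labels do not say whether replicate libraries stand for separate cultures, so every p-value below measures only the spread between these samples. In RNA from whole worms, fewer cells that express a transcript and less of it per cell cannot be told apart.

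EGL-9 is the prolyl hydroxylase that uses oxygen to mark the transcription factor HIF-1, and its relatives in mammals are the PHD or EGLN enzymes. VHL-1, part of a ubiquitin ligase with CUL-2, recognises the mark and HIF-1 is then degraded. CYSL-1 binds EGL-9 and holds it back, RHY-1 acts upstream of CYSL-1, and the egl-9 gene is itself known as a target of HIF-1. Loss of egl-9, vhl-1 or rhy-1 leaves HIF-1 active at normal oxygen, whereas ia4 removes HIF-1 function. In egl-9 mutants the gene measured is itself the mutated one. The labels give no position for the sa307 lesion. Reads lost to it, and isoforms it alters, cannot be told apart from a change in the share of an isoform in worms that carry it.

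The libraries held 7329864 to 10102598 estimated counts each, of which egl-9 took 162 to 1224. The vhl-1 gene had 0 counts in all 6 libraries labelled ok161 and 9 to 22 in the others. The hif-1 gene had 112 to 170 counts in the 6 libraries labelled ia4 and 649 to 1271 in the others. Neither egl-9 in sa307 worms nor rhy-1 in ok1402 worms had fewer counts than in N2, so level alone does not check those labels. The tables held reads of adult germline, sperm, intestine, muscle and neurons in every genotype.

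The annotation places egl-9 on chromosome V, from 10468517 to 10476915 on the plus strand of WBcel235 (Ensembl 115, not stated to be the submitters' build), over 8399 bases. Isoform a is the longest annotated protein, with 10 exons and 723 codons. Isoform d skips exon 9, a segment of 63 bases or 21 codons, and has 702 codons. Isoform e lacks the first 76 codons of a because it begins in the third exon, and has 647. Isoform c begins in an exon of its own at V:10473333-10473438, inside the fourth intron of a, and has 465 codons. Of these, 34 are its own and 431 are read in the same frame as in a, and the first 292 codons of a are absent from it. Isoform b skips the 95 bases of exon 7, which shifts the frame, and ends after 363 codons. Isoforms a, c, d and e therefore share their C-terminal end, and c differs from the others at its start. Proteins of this family carry their catalytic domain toward the C-terminal end. No other annotated gene overlaps an exon of egl-9.

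**Figure D1:**
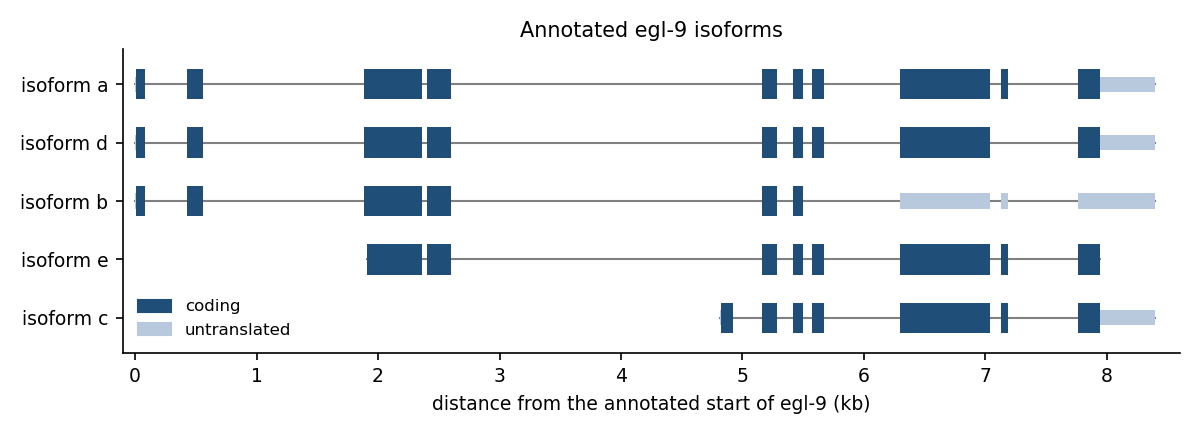
Exons of 1 annotated transcript of each egl-9 isoform, drawn to scale against the distance from the annotated start of the gene in kb, with coding exons tall and dark and untranslated stretches low and pale. Isoform c begins in its own exon nearly 5 kb into the gene, e in the third exon of a, d lacks the ninth exon and b the seventh.

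The deposited rows were a.1 with 2669 bases, a.2 with 2775, b.1 with 1469, b.2 with 1575, c with 1887, d.1 with 2606, d.2 with 2712, e.1 with 2457 and e.2 with 2775. Rows a.2 and e.2 had the same length and identical values in all 21 libraries, so they behave as 1 sequence listed under both names. Each numbered pair of a, b and d differed by 106 bases, and a and d differed by 63 bases, the length of the skipped exon. Isoform c shares 1744 of the 1850 bases of its annotated exons with a, and 106 bases are in no exon of a. Reads from shared bases are divided among the rows by estimation, so the sum over the gene is known far better than its parts. The biological coefficient of variation, the spread between libraries of a genotype beyond counting error, was 0.0864 for the sum over egl-9. It was 0.257 for the c row and 0.857 for a.2, and between 1.28 and 1.60 for a.1, d.1, d.2 and e.1.

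Isoform c was the only row with at least 22.4 estimated counts in every library. The b rows were close to absent. As deposited, b.1 and b.2 had 1469 and 1575 bases, against 2536 and 3193 in the annotation. Their counts therefore need not hold for the annotated isoform b. Row b.1 reached 5.21 counts in hif-1 replicate 3 and row b.2 reached 11.3 in N2 replicate 1, and each was under 1 in the other 20 libraries. In the 19 libraries where b was at 0, counting error alone would allow b up to 0.245 to 1.85% of the egl-9 counts (3 counts of the total). Error from dividing shared reads among the rows is not covered by that limit. Both b rows failed the filter on low counts, which left 7 rows to test. Rows a.1, d.1, d.2 and e.1 were each under 1 count in 4 or 5 libraries and reached 344, 170, 223 and 135 counts in others. With e.2, equal to a.2, left out, the share of a.1 in the counts of a.1 and a.2 ran from 0 to 79.2%. That range covers the 20 libraries with such counts, and replicates of 1 genotype covered most of it. Levels of these rows are therefore given after summing a with e, a pair whose annotated proteins differ only at their start, and d.1 with d.2.

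The summed egl-9 transcript was highest where EGL-9 was mutated and HIF-1 present, and lowest in egl-9 hif-1 and N2. In CPM, counts scaled to library size, egl-9;vhl-1 worms had 102, 123 and 103, and egl-9 worms had 89.5, 89.1 and 104.1. The rhy-1 worms had 56.4, 49.4 and 59.7 CPM and the vhl-1 worms had 61.7, 51.5 and 51.1. The egl-9 hif-1 worms had 21.9, 21.3 and 22.8 CPM, the hif-1 worms 32.1, 29.7 and 30.0, and N2 20.7, 19.1 and 22.2. In CPM the libraries of egl-9 and egl-9;vhl-1 overlapped, as did those of rhy-1 and vhl-1 and those of egl-9 hif-1 and N2. The 3 hif-1 libraries lay apart from all others. In TPM the egl-9;vhl-1 libraries, at 47.9 to 56.6, lay above the egl-9 libraries, at 42.4 to 43.3. In the deposited TPM the same sums were 51.5 ± 4.54 in egl-9;vhl-1, 42.8 ± 0.464 in egl-9, 26.2 ± 2.56 in rhy-1, 27.6 ± 3.34 in vhl-1, 9.49 ± 0.182 in egl-9 hif-1, 12.8 ± 1.53 in hif-1 and 10.2 ± 1.02 in N2 (SD, n = 3 each).

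**Figure D2:**
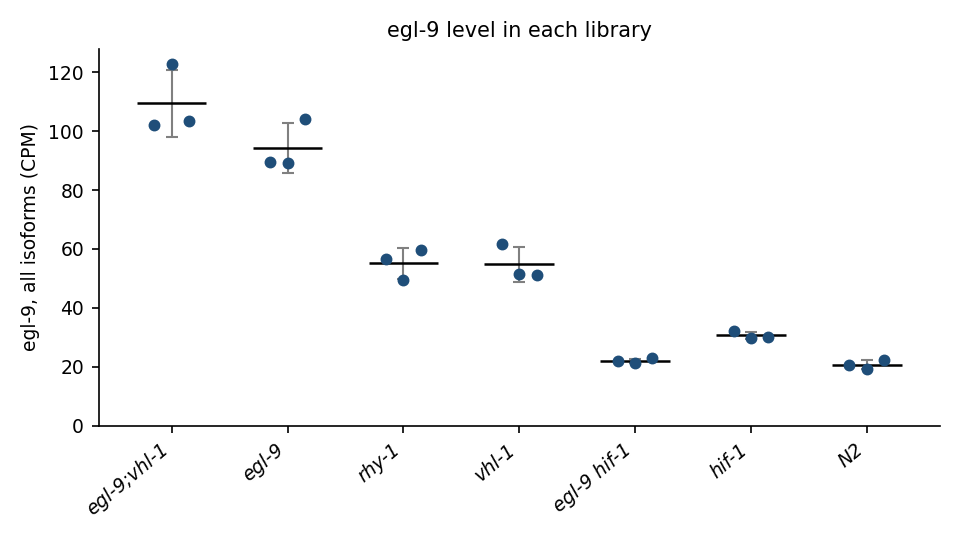
Level of egl-9 summed over its isoforms in CPM (y axis) in each of the 21 libraries by genotype (x axis), with points for libraries, black lines for means and grey bars for 1 SD. The 3 egl-9;vhl-1 libraries lie between 102 and 123 and the 3 N2 libraries between 19.1 and 22.2.

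Against N2, egl-9 rose by 2.41 ± 0.103 on the log2 scale in egl-9;vhl-1 (± SE, a 5.30-fold change) with an adjusted p of 1.48e-12 in the quasi-likelihood test of edgeR, adjusted by the Benjamini-Hochberg method over 13043 genes. In that comparison 16.5% of all tested genes were called higher at an adjusted p under 0.05, the threshold for all calls here. In egl-9 it rose by 2.19 ± 0.103 (4.56-fold, adjusted p = 6.96e-12), in rhy-1 by 1.42 ± 0.102 (2.67-fold, adjusted p = 5.64e-09) and in vhl-1 by 1.41 ± 0.103 (2.65-fold, adjusted p = 1.36e-08). The shares of genes called higher there were 14.8% in egl-9, 16.7% in rhy-1 and 6.54% in vhl-1. The hif-1 worms, which lack HIF-1 function, also had more egl-9 transcript than N2, by 0.57 ± 0.104 (1.48-fold, adjusted p = 0.00162), where 8.21% of genes were called higher. In egl-9 hif-1 the difference from N2 was 0.09 ± 0.106 with a 95% interval of -0.13 to 0.31 (adjusted p = 0.686), and 3.49% of genes were called higher.

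The genotypes fell into an order of levels in which differences between some neighbours did not pass the threshold. At the top, egl-9;vhl-1 exceeded egl-9 by 0.22 ± 0.0942 (95% interval 0.02 to 0.41, adjusted p = 0.176), in a comparison in which 8.47% of genes were called. Next, egl-9 exceeded vhl-1 by 0.78 ± 0.0961 (adjusted p = 1.13e-05, 12% of genes called), and rhy-1 lay below egl-9 by a change of -0.77 ± 0.0958 (adjusted p = 2.70e-05, 7.48% of genes called). The difference of rhy-1 from vhl-1 was 0.01 ± 0.0965, with a 95% interval of -0.19 to 0.21 (adjusted p = 0.959, 14.6% of genes called). Its sign turned under 5 other settings, to values of -0.0606 to -0.0043. The vhl-1 worms exceeded hif-1 by 0.84 ± 0.0997 (adjusted p = 6.83e-06, 28.1% of genes called). The egl-9 hif-1 worms were below hif-1, by a change of -0.48 ± 0.104 (adjusted p = 0.00228, 30.5% of genes called).

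The double mutants show how the effect of sa307 on its own transcript depended on the other gene. With hif-1 also mutated, egl-9 hif-1 worms had 4.28 times less egl-9 transcript than egl-9 worms (log2 change -2.10 ± 0.102, adjusted p = 9.21e-12, 21.4% of genes called). The interaction, the change with both mutations minus the sum of the 2 single changes, was -2.67 ± 0.145 for egl-9 and hif-1 (adjusted p = 1.24e-10, 22.1% of genes called). Adding sa307 to vhl-1 raised the transcript by 1.00 ± 0.0960 (2.00-fold, adjusted p = 4.17e-07, 17.2% of genes called), against 2.19 when it was added to N2. The interaction of egl-9 with vhl-1 was -1.19 ± 0.139 (adjusted p = 1.60e-05, 8.79% of genes called), so the level with both mutations was below the sum of both changes. These comparisons share N2 and single-mutant libraries and are not independent.

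Isoform c was high in the same 4 genotypes as the sum and lowest in egl-9 hif-1. Its level was 22.2, 25.3 and 26.8 TPM in egl-9;vhl-1, and 22.8, 18.3 and 14.8 TPM in egl-9. It was 11.7, 9.08 and 13.5 TPM in rhy-1 and 19.2, 16.5 and 12.96 TPM in vhl-1. In egl-9 hif-1 it was 3.14, 1.47 and 1.65 TPM, in hif-1 5.39, 2.62 and 4.90, and in N2 6.74, 3.61 and 4.90. All 12 libraries of egl-9;vhl-1, egl-9, rhy-1 and vhl-1 lay above the highest N2 library, all 3 egl-9 hif-1 libraries lay below the lowest, and hif-1 and N2 overlapped. In estimated counts the c row had 42.8, 22.4 and 25.3 in egl-9 hif-1, against 106, 50.3 and 69.3 in N2.

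Tested over 19578 transcripts, the c row rose against N2 by 2.26 ± 0.321 in egl-9;vhl-1 (adjusted p = 1.47e-04) and by 1.87 ± 0.318 in egl-9 (adjusted p = 8.42e-04), log2 changes with their SE. It rose by 1.13 ± 0.312 in rhy-1 (adjusted p = 0.0237) and by 1.66 ± 0.316 in vhl-1 (adjusted p = 0.00526). The share of all transcripts called was 17.5% in egl-9;vhl-1, 12.1% in egl-9, 13.8% in rhy-1 and 4.26% in vhl-1. The rhy-1 call rests on single libraries: without N2 replicate 2, N2 replicate 3, rhy-1 replicate 1 or rhy-1 replicate 3 in turn, the change was 0.93 to 1.12 and the adjusted p was 0.0612 to 0.118. Fitted with only the genotypes compared, the rhy-1 and vhl-1 changes were 1.14 and 1.66 with adjusted p of 0.0728 and 0.0754.

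In the worms without HIF-1 function the c row did not rise. In hif-1 its change against N2 was -0.17 ± 0.312 (95% interval -0.83 to 0.49, adjusted p = 0.868), where the summed gene had risen, and 3.19% of transcripts were called. In egl-9 hif-1 it was -1.28 ± 0.322 against N2 (adjusted p = 0.0508, 2.21% of transcripts called). That value lies at the threshold: 5 of 8 other settings put it under 0.05, with changes of -1.32 to -1.28. It was also under 0.05 without hif-1 replicate 2, at -1.28 (adjusted p = 0.0390), and without egl-9 hif-1 replicate 1, at -1.72 (adjusted p = 0.0165). Against egl-9, the egl-9 hif-1 worms had a c level lower by a change of -3.15 ± 0.337 (adjusted p = 1.06e-05, 10.8% of transcripts called). Against hif-1 the change was -1.11 ± 0.322 (adjusted p = 0.0338, 12.3% of transcripts called). That difference missed the threshold when hif-1 replicate 1 or 3 was left out, or egl-9 hif-1 replicate 2 or 3, with changes of -0.99 to -0.90 and adjusted p of 0.0971 to 0.137.

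Between mutants with active HIF-1 no difference in the c row passed the threshold. It was 0.40 ± 0.305 for egl-9;vhl-1 against egl-9 (95% interval -0.25 to 1.04, adjusted p = 0.669, 1.24% of transcripts called) and 0.60 ± 0.306 for egl-9;vhl-1 against vhl-1 (adjusted p = 0.333, 7.3% called). It was 0.20 ± 0.305 for egl-9 against vhl-1 (adjusted p = 0.883, 4.4% called), -0.74 ± 0.307 for rhy-1 against egl-9 (adjusted p = 0.315, 2.16% called) and -0.53 ± 0.307 for rhy-1 against vhl-1 (adjusted p = 0.405, 5.31% called). The vhl-1 worms exceeded hif-1 by 1.84 ± 0.318 (adjusted p = 0.00143, 10.9% called). The interaction of egl-9 with hif-1 was -2.98 ± 0.451 for c (adjusted p = 5.46e-04, 10.6% called). The interaction of egl-9 with vhl-1 was -1.27 ± 0.435 (adjusted p = 0.161, 2.7% called) and passed under DESeq2 with an adjusted p of 0.0467.

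**Figure D3:**
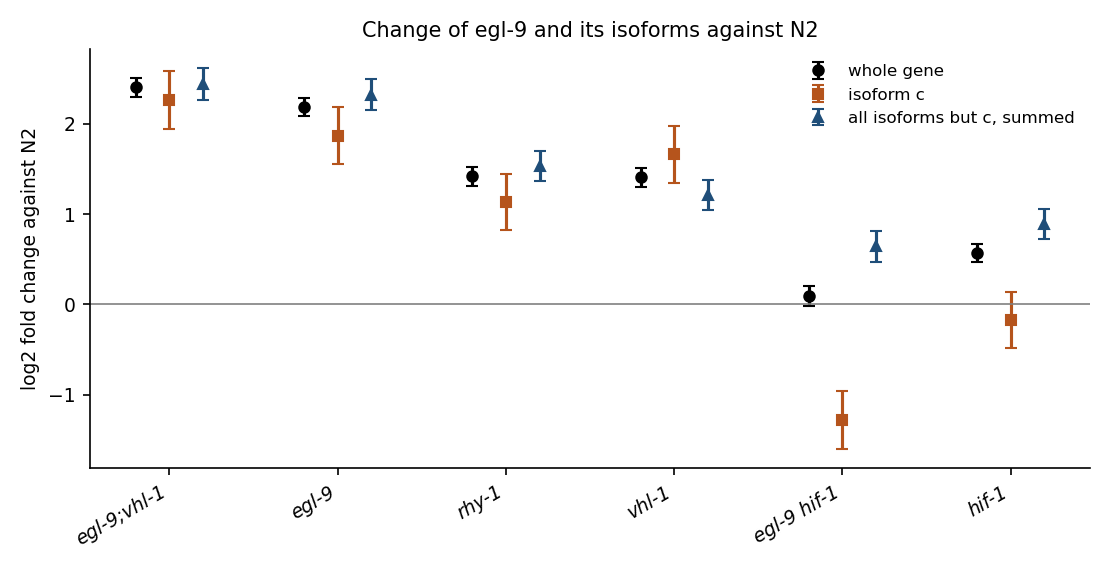
Log2 fold change against N2 (y axis) of egl-9 summed over all isoforms (black circles), of isoform c (orange squares) and of all isoforms other than c summed (blue triangles) in each mutant genotype (x axis), with bars for 1 SE. All 3 lie between 1.13 and 2.44 in the 4 genotypes on the left, while in egl-9 hif-1 and hif-1 the isoform c points, at -1.28 and -0.17, lie below the points of the other isoforms, at 0.64 and 0.89.

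No egl-9 row other than c was called in any of the 16 comparisons by edgeR's test on single rows. Of these 6 rows, 2 had an unadjusted p under 0.05 in egl-9 against N2 and 2 in egl-9;vhl-1 against N2, and both times they were a.2 and e.2, the sequence listed under both names, at 2.74 ± 1.16 in both genotypes. With limma on log2(TPM + 1) these 2 rows were called in egl-9 and, together with d.2, in egl-9;vhl-1, and they were called in egl-9;vhl-1 with DESeq2 and with limma on log2(TPM + 0.1). The SE of the rows other than c ran from 1.08 to 2.67 on the log2 scale, against 0.305 to 0.451 for c and 0.0942 to 0.145 for the gene. Changes as large as that of the whole gene were thus not called in those rows by edgeR.

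Summed by structure, isoforms a and e gave 11.5, 22.2 and 17.6 TPM in egl-9;vhl-1 and 10.8, 19.01 and 21.0 TPM in egl-9. They gave 9.99, 6.04 and 14.6 TPM in rhy-1 and 8.06, 3.82 and 7.93 TPM in vhl-1. They gave 6.47, 5.25 and 6.66 TPM in egl-9 hif-1 and 6.99, 8.64 and 5.81 TPM in hif-1, against 3.59, 3.49 and 3.51 TPM in N2. Every library of every mutant lay above the highest N2 library for a and e, those without HIF-1 function included. Isoform d averaged 9.57 ± 4.45 TPM in egl-9;vhl-1, 7.24 ± 2.31 in egl-9, 4.56 ± 4.17 in rhy-1, 4.73 ± 0.851 in vhl-1, 1.27 ± 1.28 in egl-9 hif-1 and 1.13 ± 1.01 in hif-1, against 1.27 ± 1.11 in N2 (SD, n = 3 each). It was at 0 in 1 library each of rhy-1, egl-9 hif-1, hif-1 and N2. Counting error alone would allow d up to 0.528 to 1.64% of the egl-9 counts there. Row d.1 shares 2568 of its 2569 annotated exon bases with a, so these zeros depend on how shared reads were divided. In rhy-1 replicate 2 and N2 replicate 2, d took 42.0 and 27.4% of the egl-9 counts. The limits therefore do not bound its share.

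**Figure D4:**
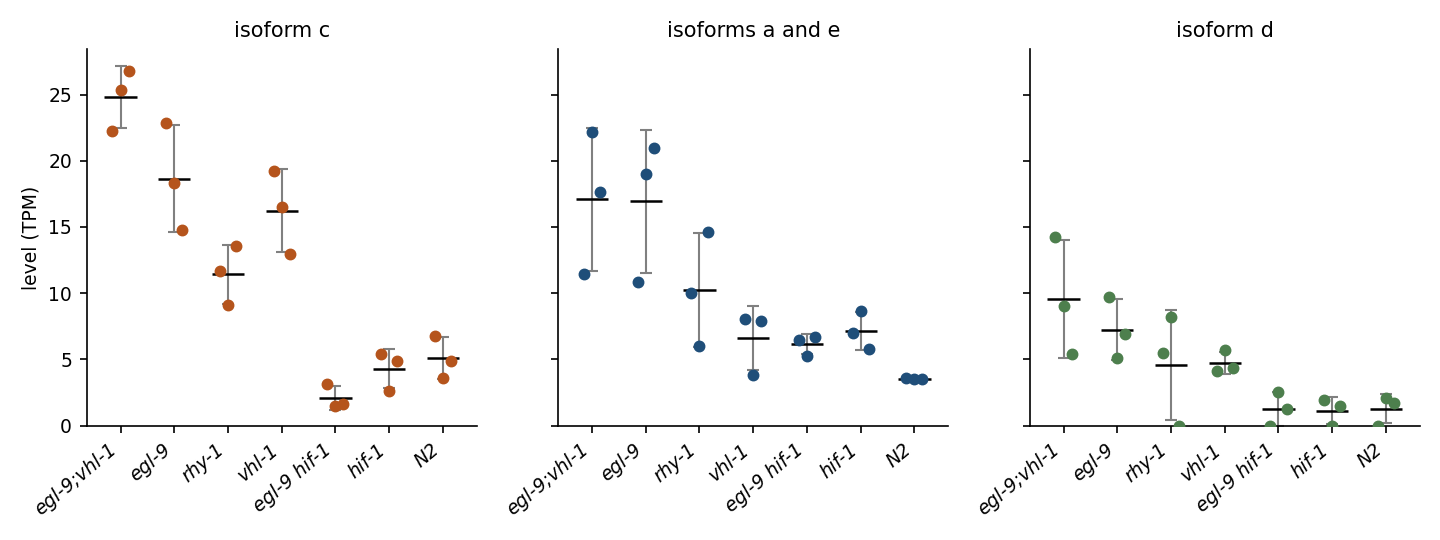
Level in TPM (y axis) of isoform c, of isoforms a and e summed and of isoform d in each library by genotype (x axis), with points for libraries, black lines for means and grey bars for 1 SD. For a and e the 3 N2 libraries lie between 3.49 and 3.59 below all mutant libraries, while for c the 3 egl-9 hif-1 libraries lie between 1.47 and 3.14 below all N2 libraries.

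The sum of a and e rose against N2 by 2.31 ± 0.393 in egl-9;vhl-1 (adjusted p = 6.79e-04), by 2.32 ± 0.393 in egl-9 (adjusted p = 8.14e-04) and by 1.50 ± 0.384 in rhy-1 (adjusted p = 0.0158). Its changes were 0.94 ± 0.381 in vhl-1 (adjusted p = 0.210), 0.88 ± 0.381 in egl-9 hif-1 (adjusted p = 0.308) and 1.18 ± 0.383 in hif-1 (adjusted p = 0.108), none of which passed, although that in hif-1 did with DESeq2 (1.19, adjusted p = 0.0356). The rhy-1 call was lost without N2 replicate 1 (1.50, adjusted p = 0.0518), N2 replicate 2 (1.44, adjusted p = 0.0687) or rhy-1 replicate 3 (1.08, adjusted p = 0.0875). For d no comparison with N2 passed, with an SE of 1.53 to 1.60. All isoforms other than c, summed into 1 feature, had a smaller error. They rose by 2.44 ± 0.174 in egl-9;vhl-1 (adjusted p = 9.30e-08), 2.32 ± 0.173 in egl-9 (adjusted p = 1.64e-07), 1.53 ± 0.169 in rhy-1 (adjusted p = 2.43e-05), 1.21 ± 0.168 in vhl-1 (adjusted p = 3.79e-04) and 0.89 ± 0.168 in hif-1 (adjusted p = 0.00884). In egl-9 hif-1 their change against N2 was 0.64 ± 0.168 (adjusted p = 0.0593). Both of these groupings were chosen after the single rows had been seen, and each was refitted with the rest of the transcripts unchanged.

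Isoform c made up 46.4, 44.8 and 53.8% of the egl-9 TPM in egl-9;vhl-1 and 52.7, 43.2 and 34.6% in egl-9. Its share was 43.0, 39.0 and 48.0% in rhy-1 and 61.2, 63.5 and 51.3% in vhl-1. It was 32.7, 15.8 and 17.2% in egl-9 hif-1 and 37.6, 23.2 and 38.5% in hif-1, against 59.9, 39.3 and 48.5% in N2. The 6 libraries without HIF-1 function were among the 7 lowest shares of the series, and the other was 34.6% in egl-9 replicate 3. In estimated counts the lowest share was 11.03% of 203 counts in egl-9 hif-1 replicate 2 (95% Wilson interval 7.27 to 15.9%, for counting error only), and the highest was 53.3% of 460 counts in vhl-1 replicate 2 (48.7 to 57.8%).

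**Figure D5:**
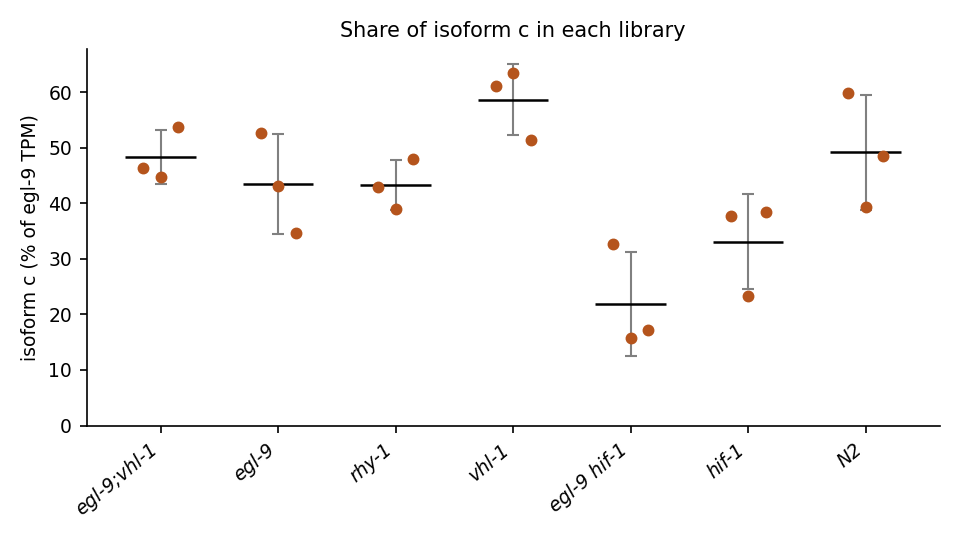
Share of isoform c in the egl-9 TPM in percent (y axis) in each library by genotype (x axis), with points for libraries, black lines for means and grey bars for 1 SD. The 3 egl-9 hif-1 libraries lie between 15.8 and 32.7% and the 3 hif-1 libraries between 23.2 and 38.5%, while the 3 N2 libraries lie between 39.3 and 59.9%.

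Shares were compared by allele with an exact permutation test, two-sided, that exchanged libraries only within a background. The 6 libraries with ia4 had a mean c share of 27.5%, against 46.4% in the 6 libraries of egl-9 and N2. The difference was -18.8 percentage points with an exact p of 0.005, the smallest this design allows, and 0.09 after Benjamini-Hochberg adjustment over the 18 pairs of row and allele. It was -21.6 points between egl-9 hif-1 and egl-9 and -16.1 points between hif-1 and N2, with no overlap in either pair (exact permutation p = 0.1 each, the smallest for 3 against 3). The 9 libraries with sa307 had a mean of 37.9%, against 47.0% in the 9 matched libraries without it, a difference of -9.09 points (exact p = 0.0305, adjusted 0.24). The 6 libraries with ok161 had 53.5%, against 46.4% in egl-9 and N2, a difference of 7.13 points (exact p = 0.135, adjusted 0.405). With sa307 the libraries overlapped those without it in each background, and the exact p was 0.0565 to 0.0713 without N2 replicate 1, egl-9 replicate 3, hif-1 replicate 1 or 3, or egl-9 hif-1 replicate 2 or 3, with differences of -8.34 to -7.31 points. With ok161 it was 0.035 without egl-9 replicate 1, at 9.42 points.

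Of the other rows, a.2 had a higher share with ia4, 16.7% against 7.65% in egl-9 and N2 (exact p = 0.04, adjusted 0.24). Row e.2 had the same shares, so these values hold only a part of the sequence listed under both names. That p was 0.06 to 0.115 when any of 8 libraries was left out, with a difference of 5.97 points without egl-9 hif-1 replicate 1 and 9.04 with all libraries. It was 0.07 with shares of estimated counts and 0.125 with the replicate block. No further row and allele gave an exact p under 0.05. For a and e summed, the share was 60.8% with ia4, against 37.3% in egl-9 and N2, a difference of 23.5 points (exact p = 0.005, the smallest possible, a grouping chosen after the rows had been seen). Shares within a gene rise only as others fall, so neither this difference nor that of a.2 is independent of the lower share of c. For d the ia4 difference was -4.07 points (exact p = 0.485).

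Whether a row changed relative to its whole gene was also tested across all transcripts. By edgeR's diffSpliceDGE none of the 7 egl-9 rows was called in the 6 comparisons with N2 or in either interaction. Over all 16 comparisons, 1 of 112 such tests had an unadjusted p under 0.05, at 0.0321. The shares of the 10189 tested transcripts called were 0.196% in egl-9;vhl-1, 0.275% in egl-9, 0.137% in rhy-1, 0.118% in vhl-1, 0.186% in egl-9 hif-1 and 0.157% in hif-1 against N2. They were 0.236% for the egl-9 by hif-1 interaction and 0.196% for egl-9 by vhl-1. With all other isoforms merged into 1 feature, edgeR's test measures c against the whole gene, c included. In egl-9 hif-1 against N2 the relative log2 change of c was -1.41 (unadjusted p = 0.0127, adjusted 0.479). Limma's voom with diffSplice measures c against the merged feature instead, so its values are not on the same scale. For the same contrast it gave -2.02 (adjusted p = 0.0298, 0.471% of transcripts called). For vhl-1 against hif-1 it gave 1.55 (adjusted p = 0.0227, 0.511% of transcripts called). For vhl-1 against hif-1 edgeR gave 0.97 (adjusted p = 1). The other contrasts of worms without HIF-1 function were not called by voom either, with relative changes of -1.09 in hif-1 against N2 (adjusted p = 0.348), -1.57 in egl-9 hif-1 against egl-9 (adjusted p = 0.0683) and -0.92 in egl-9 hif-1 against hif-1 (adjusted p = 0.382).

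Of the other genes of the pathway, rhy-1 and cysl-1 rose in most mutants and the rest fell or did not pass. Of 11 listed, 10 had enough counts to test, and elc-1, an elongin subunit of the ligase, had not. In egl-9 2 rose and 1 fell, against 14.8% and 11% of all genes. In egl-9;vhl-1 2 rose and 2 fell (18.1% of genes fell), in rhy-1 2 rose and 1 fell (12.8% of genes fell) and in vhl-1 2 rose and 1 fell (5.95% of genes fell). In egl-9 hif-1 1 rose and 1 fell (3.06% of genes fell), and in hif-1 2 rose and 3 fell (6.14% of genes fell). The list's median change lay between -0.11 and 0.06 over the 6 genotypes and that of all genes between -0.03 and 0.04. The genes that rose were rhy-1 in all 6 genotypes and cysl-1 in all but egl-9 hif-1.

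The rhy-1 gene, which encodes a membrane protein of the acyltransferase type, rose in hif-1 worms as egl-9 did. It averaged 496 CPM in egl-9;vhl-1, 469 in egl-9, 168 in rhy-1, where it is the mutated gene, 145 in vhl-1, 55.5 in egl-9 hif-1 and 60.0 in hif-1, against 37.2 in N2. Its changes were 3.65 ± 0.0901 in egl-9 (adjusted p = 2.24e-16) and 0.69 ± 0.0849 in hif-1 (adjusted p = 5.25e-05), beside 2.19 and 0.57 for egl-9. Unlike egl-9, it was also called in egl-9 hif-1, at 0.57 ± 0.0849 (adjusted p = 4.97e-04), although whether both genes differ in this was not tested. The cysl-1 gene, whose product inhibits EGL-9, rose by 2.73 ± 0.127 in egl-9;vhl-1 (adjusted p = 5.30e-12) and by 0.85 ± 0.128 in vhl-1 (adjusted p = 1.33e-04), and its change in egl-9 hif-1 was -0.09 ± 0.132 (adjusted p = 0.760).

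Among the members that fell, vhl-1 and hif-1 did so in the worms that carry their mutations. The lin-10 gene, which encodes a PDZ protein that EGL-9 binds, fell by 0.41 in egl-9 (adjusted p = 0.0206) and by 0.36 in egl-9;vhl-1 (adjusted p = 0.0284). The ligase subunit rbx-1 fell by 0.48 in rhy-1 (adjusted p = 0.00771) and by 0.60 in hif-1 (adjusted p = 0.00524), and elb-1, another elongin, by 0.60 in hif-1 (adjusted p = 0.0484). The partner of HIF-1, aha-1, the scaffold cul-2 and swan-1, a WD-repeat protein that binds EGL-9, did not pass in any genotype. Of 9 listed HIF-1 targets other than egl-9, 9 rose in egl-9;vhl-1, egl-9 and rhy-1 and 8 in vhl-1, with median changes of 3.73, 3.65, 3.17 and 2.34. Over all genes 16.5% were called higher in egl-9;vhl-1, 14.8% in egl-9, 16.7% in rhy-1 and 6.54% in vhl-1. The sulfide oxidoreductase gene sqrd-1 rose most, by 7.87 ± 0.210 in egl-9;vhl-1 (adjusted p = 6.04e-16).

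Where HIF-1 function was lost, targets other than rhy-1 fell or did not pass. In hif-1, 1 of the 9 rose, which was rhy-1, and 2 fell, cysl-2 by 0.96 (adjusted p = 1.17e-04) and sqrd-1 by 1.67 (adjusted p = 4.15e-04). In egl-9 hif-1, 1 rose, again rhy-1, and 3 fell, among them the nuclear receptor gene nhr-57 by 0.90 (adjusted p = 0.00232). With only the genotypes compared, 2 of the 9 were called in egl-9 hif-1. Over all genes 8.21% rose and 6.14% fell in hif-1, and 3.49% rose and 3.06% fell in egl-9 hif-1. Of the collagen prolyl 4-hydroxylase genes, which encode a different class of prolyl hydroxylase, 3 of 4 were tested. In egl-9, dpy-18 and phy-2 rose by 2.75 ± 0.181 (adjusted p = 1.03e-09) and 3.37 ± 0.217 (adjusted p = 7.15e-10), and phy-3 had a change of 0.21 ± 0.182 (adjusted p = 0.454). In hif-1, phy-3 rose by 0.71 ± 0.178 (adjusted p = 0.0137), a call lost without N2 replicate 2 or hif-1 replicate 2 or 3.

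Genes were ranked by the likeness of their pattern to egl-9, as the Pearson correlation of log2 CPM over all 21 libraries among the 7939 genes whose mean reached 10 CPM in some genotype. The libraries fall into genotypes, so the value mostly reflects the 7 genotype means and is given as a description. The most like was rhy-1 with 0.982, followed by F49F1.5 with 0.975, F21D5.3 with 0.972, F49F1.7 with 0.971, clec-4 with 0.967, M02D8.6 with 0.966, F35E12.9 with 0.961 and F35C12.3 with 0.958. After the genotype means were removed, the correlation with egl-9 was 0.324 for rhy-1 and 0.657 for clec-4, which is named as a C-type lectin. The most opposite were dach-1 with -0.954, W06A7.4 with -0.949 and C35A5.3 with -0.941. The dach-1 gene averaged 0.197 CPM in egl-9;vhl-1 and 0.501 in egl-9, against 13.2 in N2.

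Markers of developmental stage moved with some of the same genotypes. Of 16 genes of the last larval molt, 2 were called higher against N2 in egl-9;vhl-1, 11 in egl-9, 12 in rhy-1, 5 in vhl-1 and none in egl-9 hif-1 and hif-1. The shares of all genes called higher were 16.5% in egl-9;vhl-1, 14.8% in egl-9, 16.7% in rhy-1, 6.54% in vhl-1, 3.49% in egl-9 hif-1 and 8.21% in hif-1. Their summed level was 224 to 495 CPM in egl-9;vhl-1, 905 to 2308 in egl-9, 768 to 1855 in rhy-1, 72.3 to 1010 in vhl-1, 64.8 to 67.0 in egl-9 hif-1 and 63.8 to 126 in hif-1, against 47.1 to 51.7 in N2, where rol-6 was at 0. In vhl-1 1 library, replicate 2, had 1010 CPM and the others 72.3 and 75.4. Without it the change of egl-9 against N2 was 1.45 and that of its isoform c 1.65, beside 1.41 and 1.66 with it, and both remained called. The egl-9;vhl-1 worms had the most egl-9 transcript with a lower molt sum than egl-9 and rhy-1. The part of the molt genes in the egl-9 levels was not tested.

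Of 10 sperm markers, msp-31 was at 0 in every genotype, and 8 of the 9 tested fell in egl-9;vhl-1, where 18.1% of all genes were called lower. The sum of the sperm markers was 349 to 436 CPM in egl-9;vhl-1, against 608 to 961 CPM in N2. The sum of 6 intestine markers was 1969 to 2121 CPM in egl-9;vhl-1, 1847 to 2086 in egl-9, 1378 to 1559 in rhy-1, 1486 to 1878 in vhl-1, 753 to 894 in egl-9 hif-1 and 1377 to 1636 in hif-1, against 1026 to 1176 in N2. The sum does not stand for all 6, as their calls against N2 were mixed. In egl-9;vhl-1, 1 rose and 2 fell (16.5% and 18.1% of all genes). In egl-9, 2 rose and 1 fell (14.8% and 11%), in rhy-1 2 and 2 (16.7% and 12.8%) and in vhl-1 2 and 0 (6.54% and 5.95%). In egl-9 hif-1, 0 rose and 2 fell (3.49% and 3.06%), and in hif-1 3 and 0 (8.21% and 6.14%). Their median log2 change lay between -0.47 in egl-9 hif-1 and 0.65 in hif-1, and was -0.14 in egl-9;vhl-1. The sum of 16 oocyte, yolk and eggshell markers was lowest in egl-9, at 63745 to 98945 CPM, and highest in egl-9 hif-1, at 154843 to 191133 CPM, against 114565 to 149306 CPM in N2. Single markers of the oocyte, yolk and eggshell list also went both ways. In egl-9, 1 rose and 7 fell (14.8% and 11% of all genes). In egl-9;vhl-1, 8 rose and 3 fell (16.5% and 18.1%), with a sum of 106276 to 111811 CPM. In egl-9 hif-1, 3 rose and 0 fell (3.49% and 3.06%). In rhy-1, 2 rose and 5 fell (16.7% and 12.8%), in vhl-1 2 and 3 (6.54% and 5.95%) and in hif-1 0 and 2 (8.21% and 6.14%). The sum of 8 neuron markers lay between 222 and 272 CPM and that of 6 muscle markers between 9739 and 15128 CPM over all genotypes. The oocyte, yolk and eggshell list mixes kinds of genes, so its sum does not stand for a single cell type. The part of the cells behind any of these markers in the egl-9 levels was not tested.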

How the data were processed

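RNA from 21 samples of 30 to 50 worms each was made into SmartSeq2 libraries, which carry no strand information, per the labels' protocols. Tools listed in the submitters' processing notes are kallisto, which divides reads that fit several transcripts by an estimate, and bcl2fastq 1.8.4. Not given in the sources used here are the kallisto version, its transcript set and any genome build. The authors deposited estimated counts per transcript, of which 66.6% were within 1e-06 of a whole number. The authors' deposited TPM values are corrected for effective length and library size.

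The members, gene lists and tests were chosen with earlier results of these data known. Transcripts were tied to genes by name (28369), by sequence name (4229) or not at all (307, with 0.102 to 0.127% of the counts), with Ensembl 115. Estimated counts were summed per gene or kept per transcript, rounded, normalised by TMM and tested with edgeR 4.0.16 quasi-likelihood (filterByExpr, minimum count 10, all 21 libraries, genotype as the only term, 14 residual degrees of freedom) in R 4.3.3. Adjusted p-values in the text come from these fits over 13043 genes or 19578 transcripts unless another tool is named. CPM are TMM-scaled, and the log2 CPM used for the correlations have a prior count of 2. Fitted changes use edgeR's default prior count. Isoform usage was tested with diffSpliceDGE, and shares of TPM by exact permutation in Python 3.11.15 with scipy 1.17.1. The genes named are all members, the lists, and the 8 most and 3 least correlated with egl-9. Alternatives were RLE size factors, no filter, a minimum count of 50, length-scaled TPM, a replicate block, only the genotypes compared, DESeq2 1.42.0, limma 3.58.1 on log2(TPM + 1) and log2(TPM + 0.1), voom with diffSplice, and leaving out each library. The fits were tested on simulated data with a smaller spread than that of the single egl-9 rows. Error from dividing shared reads was not simulated, so that check does not cover those rows. Wilson intervals and limits from 3 counts cover counting error only, and no pair of libraries was identical.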

Additional observations from a re-analysis of the deposited data

Results flagged for a closer look

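The change of egl-9 with sa307 differed with the state of hif-1. The interaction was -2.67 on the log2 scale for the summed gene, -2.98 for isoform c, -2.62 for isoforms a and e summed and -2.57 for all isoforms other than c, each past the threshold in edgeR's test. The 2 comparisons behind each value are egl-9 hif-1 against hif-1 and egl-9 against N2, with gene changes of -0.48 and 2.19.

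The change with sa307 also differed with the state of vhl-1. The interaction was -1.19 for the summed gene and -1.09 for all isoforms other than c. The gene changes behind it were 1.00 for egl-9;vhl-1 against vhl-1 and 2.19 for egl-9 against N2. Without single libraries the interaction for the summed gene lay between -1.28 and -1.10 and remained past the threshold in all 21 fits.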

How the results depend on the processing

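Each gene change kept its direction and its side of the threshold under every planned setting, except 2 that were near 0. For egl-9 hif-1 against N2 it was -0.13 with length-scaled TPM. For rhy-1 against vhl-1 it was -0.0064 with RLE size factors, -0.014 without a filter, -0.0606 with length-scaled TPM, -0.0043 with only the genotypes compared and -0.0073 with DESeq2, and -0.0515 to 0.104 without single libraries. Isoform c in egl-9 hif-1 against N2 passed with RLE size factors (-1.30), a minimum count of 50 (-1.32), the replicate block (-1.29), DESeq2 (-1.31) and limma on log2(TPM + 0.1) (-1.28), with adjusted p of 0.00368 to 0.0487, and lay between -1.72 and -1.03 without single libraries. With only the genotypes compared, c no longer passed in rhy-1 (1.14) and vhl-1 (1.66) against N2 or in egl-9 hif-1 against hif-1 (-1.12). The last was also lost with limma on log2(TPM + 1) (-0.78). With DESeq2 the interaction of egl-9 with vhl-1 passed for c (-1.27).

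Without single libraries, c lay between 0.93 and 1.38 in rhy-1 against N2, -0.37 and 0.0804 in hif-1 against N2, and -1.54 and -0.90 in egl-9 hif-1 against hif-1. The sum of a and e lay between -0.28 and 0.24 in egl-9;vhl-1 against egl-9, where the replicate block gave 0.0156, and between -0.42 and 0.0432 in vhl-1 against hif-1. In percentage points of share, the ranges were -3.67 to 2.88 for a.1 with sa307, -3.63 to 2.44 for a.1 with ok161, -2.76 to 0.00555 for a.2 with ok161, -10.9 to -7.31 for c with sa307, 4.64 to 9.81 for c with ok161, -0.563 to 2.53, -2.06 to 1.12 and -4.31 to 0.331 for d.1 with sa307, ok161 and ia4, -4.22 to 2.12 for e.1 with sa307 and -0.201 to 5.49 for d with ok161. The cause of these changes was not tested.

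No clear pairing of samples by replicate number was seen, in a description that cannot show whether samples shared a culture or a preparation. Of 63 pairs of libraries with the same number, 14 had deviations correlated over 0.1, and of 126 pairs with different numbers 24 had. With the replicate block the gene change in egl-9 against N2 was 2.19. Merged rows were added after the data had been seen. Usage with only the genotypes compared, and all isoforms other than c without single libraries, were not run. Few counts set these isoforms apart, and single rows other than c had too wide a spread for edgeR to call a change of the size of the whole gene's. In hif-1 against N2, leaving out single libraries moved the pathway genes called from 5 to as few as 3 (without N2 replicate 1 or 2, or hif-1 replicate 2 or 3) and the HIF-1 targets called to 5 without N2 replicate 3. With only the genotypes compared, 3 pathway genes were called in hif-1 against N2 and 2 HIF-1 targets in egl-9 hif-1 against N2.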

Other observations

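Counts of isoform b appeared in 2 libraries of 21. N2 replicate 1 had 11.3 estimated counts of b.2 and hif-1 replicate 3 had 5.21 of b.1, while the other replicates of both genotypes had none above 1.

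The 106 bases by which the longer rows of a, b and d exceed the shorter ones equal the 106 bases of the first exon of c. The deposited files hold no sequence, so whether the bases are the same was not tested. Deposited lengths and the annotation differed by 37 or 38 bases for a.1, c and d.1, by 513 for e.1, and by -1067 and -1618 for b.1 and b.2, deposited minus annotated.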
